A study of Homo sapiens with 12 samples.

Results

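The 4 libraries described here mapped succinylated lysine on the chromatin of HepG2/C3A cells, with sodium succinate or as control. They are 4 of the 12 samples of the series, of which 8 had a file that was analysed here. All came from HepG2/C3A, a subline of a human hepatocellular carcinoma line with epithelial-like growth, and all were collected after 48 h. The succinate group (replicates 1 and 2) received 10 mM sodium succinate in the medium. The control group (replicates 1 and 2) is labelled only as control, and the design text calls it a vehicle. The other antibody used here recognised H3K27me3, and the IgG samples were not analysed here, so the level of an unspecific antibody is not part of any value. The replicates are labelled as biological, without word on separate cultures, so each p-value measures only the spread between these samples.

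Lysine succinylation adds a bulky, negatively charged succinyl group to a lysine side chain, taken from succinyl-CoA, an intermediate of the citric acid cycle. Succinate is made from succinyl-CoA and oxidised to fumarate by succinate dehydrogenase. Sirtuins such as SIRT5 and SIRT7 remove the group. Succinate is also a known inhibitor of enzymes that use 2-oxoglutarate, among them the Jumonji domain histone demethylases and the TET enzymes. A pan-succinyllysine antibody (Ksu) binds the modification on any protein, so a Ksu peak does not name the histone or the residue. In CUT&Tag the antibody directs a transposase to nearby chromatin, and the released fragments are sequenced. SEACR then joins covered bases into blocks and lists those whose total signal passes a threshold.

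The deposited lists differed widely in length, with 76702 peaks in control replicate 1, 382019 in control replicate 2, 294568 in succinate replicate 1 and 629903 in succinate replicate 2 on chromosomes 1 to 22, X and Y. To remove that difference, the 76702 peaks of highest total signal were taken from each list, 306808 of 1383192 peaks in all. This took 100% of the shortest list and 20.1%, 26% and 12.2% of the others, in the same order. Since the totals are equal, a region with more peaks implies fewer elsewhere, and the values below describe where peaks lay and not how much succinylation the cells held. The peaks taken also differed in strength. Measured in the smallest step of each library's signal, the median peak height was 33 and 17 in the controls against 29 and 28 with succinate, so control replicate 2 stood below the other 3. The part of this difference in the results below was not tested.

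Ksu peaks lay more often in genes after succinate. Of the peaks taken, 38.9% and 35.6% had their centre in the body of a protein-coding gene in control replicates 1 and 2, and 44.5% and 45.9% in succinate replicates 1 and 2. Gene bodies make up 41.3% of the chromosomes, so both control libraries were below that share and both succinate libraries above it. On the log2 scale succinate was higher by 0.28, with a pooled replicate SD of 0.068 (n = 2 in each group), and the step was 0.19 between the replicates numbered 1 and 0.37 between those numbered 2. With 6 arrangements of 4 libraries, the exact permutation p (two-sided) was 0.333, which is the lowest value this design allows.

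Most of this difference was already present in the share expected from the regions in which the peaks lay. From the number of peaks in each 1-Mb window and the gene cover of that window, a gene body share of 41.1% and 38.1% was expected for the controls and 46.1% and 46.6% for succinate. The observed share divided by the expected one was 0.946 and 0.933 for the controls, and 0.965 and 0.986 for succinate. Within their windows the peaks of all 4 libraries were thus somewhat less frequent in genes than the gene cover gives, and less so in succinate. This ratio differed by 0.054 on the log2 scale, with a pooled SD of 0.018 and no overlap (exact permutation p = 0.333). This measure was added after the data had been seen. From the number of peaks per chromosome alone, 42.4% and 41.8% were expected for the controls, against 43.0% and 42.7% for succinate.

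Gene density separated the treatments more widely. In the 400 windows of 1 Mb that overlap no protein-coding gene there were 19.7 and 25.0 peaks per Mb in control against 11.3 and 11.1 in succinate. In the 231 windows with 20 or more genes there were 12.1 and 9.40 peaks per Mb in the controls against 23.6 and 21.8 with succinate. Both control libraries were above both succinate libraries in gene-free windows and below them in the densest ones. Windows with 1 to 4 genes went the same way as the gene-free ones, with 33.8 and 36.2 peaks per Mb in control against 26.7 and 25.6 in succinate. Windows with 5 to 9 genes held 24.1 and 21.6 against 28.6 and 30.3, and those with 10 to 19 genes held 17.3 and 12.8 against 27.6 and 28.0. The log2 difference between treatments thus went from -0.98 in gene-free windows through -0.42, 0.37 and 0.90 to 1.09 in the densest class.

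**Figure D1:**
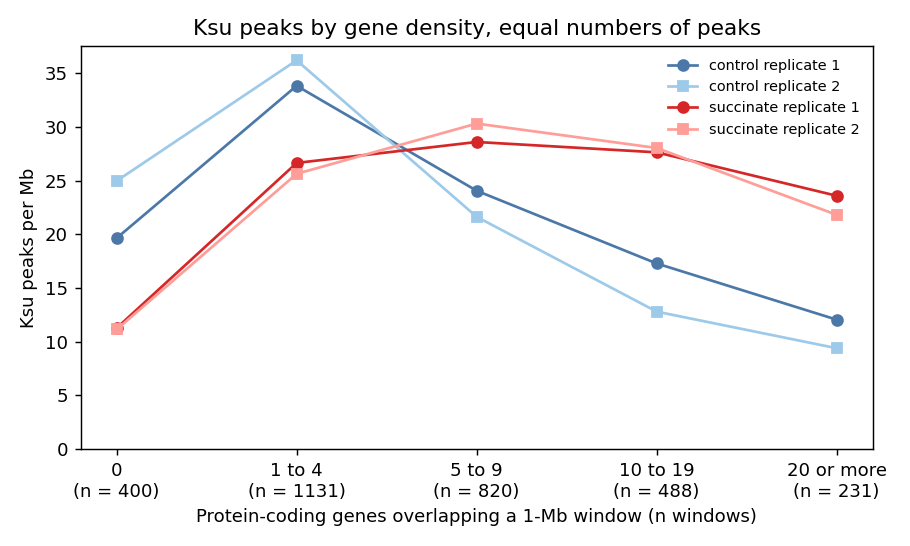
Ksu peaks per Mb (vertical axis) in 1-Mb windows grouped by the number of protein-coding genes they overlap (horizontal axis, with the number of windows); each line is a library. Both succinate lines start at about 11 peaks per Mb in gene-free windows, below both control lines, and end above 20 in the densest windows, where both control lines are near 10.

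The ratio of the densest class to the gene-free class was 0.614 and 0.376 in the controls, and 2.09 and 1.96 with succinate. Succinate was 4.21-fold higher, or 2.07 on the log2 scale, where the pooled replicate SD was 0.36 (n = 2 in each group, exact permutation p = 0.333). The ratio was further apart among the strongest peaks. In the 7670 peaks of highest total signal this ratio took the values 0.314 and 0.168 in the controls and 2.82 and 2.66 in succinate. Weaker peaks were examined in the longer lists. In control replicate 2 the ratio went from 0.376 in the first 76702 peaks through 0.597 and 0.745 to 0.869 in the fourth set of that size, while in succinate replicate 2 the first 5 sets gave 1.96, 1.82, 1.80, 1.78 and 1.87. The sets examined, the first 5 at most of each list, were all below 1 in the control libraries and all above 1 in the succinate libraries. The level of 1 depends on which windows are counted. Of the 400 gene-free windows 229 reached a mean of 5 peaks, against 217 of the 231 densest. Windows with few or no peaks thus lengthen the gene-free class more and raise the ratio. The lengths are the same in all 4 libraries, so they cancel in the difference between treatments.

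Some single chromosomes differed in the same sense, though not all did. Chromosome 19, which has the most protein-coding genes per Mb, held 5.67 and 6.15 peaks per Mb in control against 15.3 and 15.9 in succinate. Chromosome 22 held 3.94 and 5.06 against 13.5 and 15.1, and chromosome 17 held 14.3 and 12.0 against 29.3 in each succinate library. In limma over the 24 chromosomes, these 3 passed in the direction of more peaks after succinate (12.5% of those tested). Their log2 differences were 1.16 for chromosome 17, 1.40 for 19 and 1.68 for 22, each with an adjusted p of 0.014. Chromosome 5 was the 1 that passed in the other direction (4.17%), with 35.1 and 34.4 peaks per Mb in the controls against 19.8 and 21.2 with succinate, or -0.76 on the log2 scale (limma adjusted p = 0.020).

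These calls depended on single libraries. Without control replicate 1, succinate replicate 1 or succinate replicate 2 no chromosome passed as higher, and chromosome 5 did not pass whichever of the 4 libraries was left out. With all listed peaks scaled to equal totals no chromosome passed. Both succinate libraries lay above both control libraries on 7 chromosomes and below them on 4, and the groups overlapped on 13. The lower ones were chromosomes 4, 5, 11 and 13. Of these, chromosome 11 is gene-rich, with 9.63 protein-coding genes per Mb. It held 27.2 and 29.6 peaks per Mb in control against 24.5 and 25.6 in succinate. Across the 24 chromosomes, which share the same 4 libraries, genes per Mb and the log2 difference had a Pearson r of 0.70 and a Spearman rho of 0.71.

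**Figure D2:**
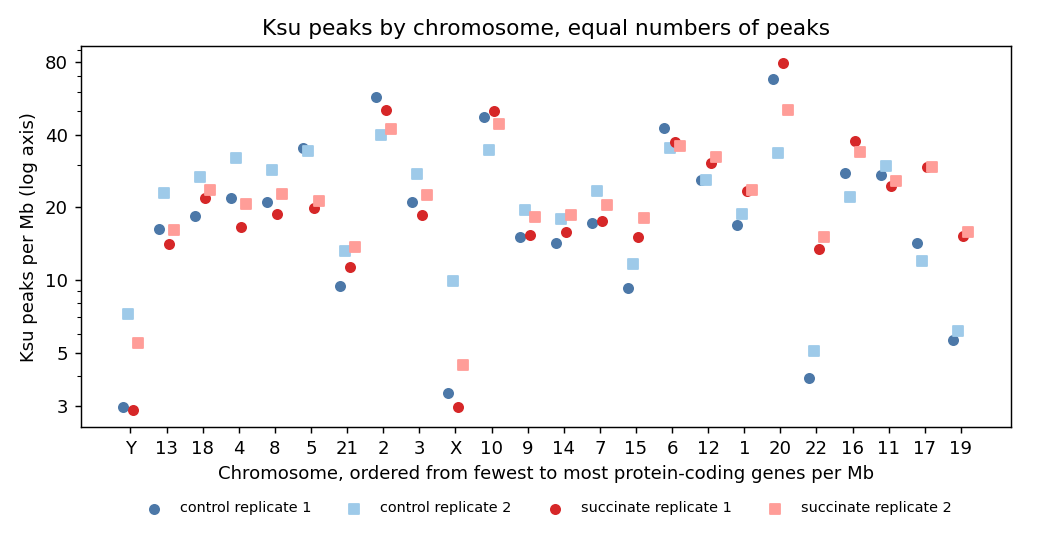
Ksu peaks per Mb (vertical log axis) on each chromosome, ordered from fewest to most protein-coding genes per Mb; each point is a library. On chromosomes 17, 19 and 22 both red succinate points lie above both blue control points, and on chromosome 5 both lie below.

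Gene-rich and gene-poor windows also went apart within chromosomes. In windows with 10 or more genes, both succinate libraries held more peaks per Mb than both controls on 21 of the 24 chromosomes, and they held fewer on 0. The exceptions were chromosomes 5 and X, where the groups overlapped, and Y, which held 0 peaks in that class. In windows with under 5 genes both succinate libraries were lower on 14 chromosomes and higher on 3, which were 17, 19 and 22. On chromosome 5 such windows held 40.1 and 43.4 peaks per Mb in control against 19.1 and 19.6 in succinate. On 23 of the 23 chromosomes with a value for both classes, the log2 difference was more positive in windows with 10 or more genes than in those with under 5. Chromosomes 17, 19 and 22 thus held more peaks after succinate in their gene-poor windows too, and chromosome 5 showed the lower level mainly in its gene-poor windows. Within 5 Mb of chromosome ends, windows with under 5 genes held 22.3 and 23.5 peaks per Mb in control against 24.8 and 21.2 in succinate, which overlap. At 20 Mb or more from an end they held 30.9 and 34.8 against 21.5 and 21.2.

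Among single 1-Mb windows, 136 of 2750 tested held more peaks after succinate (4.95%) and 85 held fewer (3.09%) in limma with Benjamini-Hochberg adjustment at 0.05. The calls lay close to that threshold, with a lowest adjusted p of 0.0456, and at an unadjusted p under 0.05 there were 665 higher and 474 lower. The calls did not hold when any of the 4 libraries was left out, which leaves 1 library in a group. The sign of the difference stayed in all 136 and all 85. Where the groups do not overlap, leaving out 1 library cannot change the sign, so this does not test the calls. There were also 0 calls in windows of 0.5 Mb, with peaks ranked by highest signal, with the stronger 50% of the peaks, without the minimum of 5 peaks, and without the called chromosomes 5, 17, 19 and 22, a setting added after the data had been seen. The calls are therefore described here as a group, with single windows as examples. Without regard to the test, both succinate libraries were above both controls in 1052 windows (38.3%) and below them in 819 (29.8%). Neighbouring windows are not independent of each other.

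The windows called higher were gene-rich and those called lower gene-poor. The median number of protein-coding genes was 12 in windows called higher, 1 in windows called lower and 5 in all windows tested. Windows called lower were 32 of the 229 tested without a gene and 53 of the 1059 tested with 1 to 4 genes. None of them overlapped 5 or more. Windows called higher were 0 of the 229 without a gene, 12 of the 1059 with 1 to 4 and 37 of the 781 with 5 to 9. In the denser classes they were 58 of the 464 with 10 to 19 genes and 29 of the 217 with 20 or more. The Spearman rho between the number of genes and the log2 difference was 0.73 over the 2750 windows, which share the 4 libraries. By chromosome, the lower windows included 29 of the 176 tested on chromosome 5 and 12 of the 132 tested on chromosome 11. The higher windows included 23 of 219 on chromosome 1, 18 of 79 on chromosome 17, 12 of 131 on chromosome 12 and 12 of 78 on chromosome 16.

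**Figure D3:**
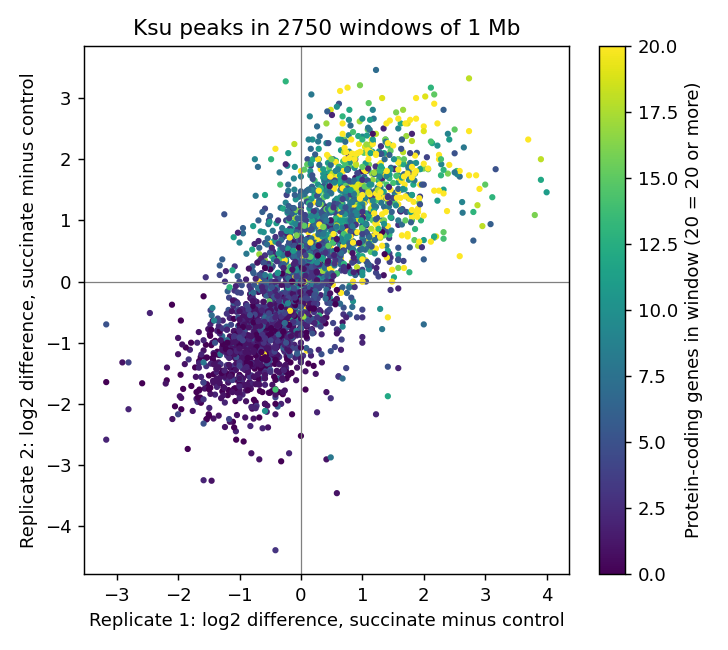
Log2 difference in Ksu peaks (succinate minus control, peaks + 1) in replicate 1 (horizontal axis) and replicate 2 (vertical axis) for each of the 2750 windows tested, coloured by the number of protein-coding genes. Gene-rich windows lie mostly at the upper right and gene-poor windows at the lower left.

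The plot of the replicate differences showed the same sign in 80.2% of the windows, with a Pearson r of 0.74. The labels do not say that equal replicate numbers pair the libraries. Between libraries, the correlation of window values was 0.78 for the controls and 0.83 for the succinate libraries. Between treatments it was 0.62 for control 1 and succinate 1, 0.55 for control 1 and succinate 2, 0.28 for control 2 and succinate 1 and 0.25 for control 2 and succinate 2. Control replicate 2 was the library farthest from the succinate libraries, and it was also the library with the lowest peak height, whose part was not tested.

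The called windows with the largest differences show the scale of the shift. On chromosome 17, the window from 58000001 to 59000000 (GRCh38) held 14 and 6 peaks in the controls against 60 and 56 with succinate. It overlaps 19 protein-coding genes, among them TRIM37, a ubiquitin ligase of centrosomes, RNF43, a ubiquitin ligase that restrains Wnt receptors, and RAD51C, a homologous recombination factor. Its log2 difference was 2.52 ± 0.42 (SE, limma adjusted p = 0.046). On chromosome 19, the window from 44000001 to 45000000 held 2 and 3 peaks in control against 19 and 21 in succinate. It overlaps 30 genes, among them several zinc finger genes and NECTIN2, a cell adhesion molecule. On chromosome 1, the window from 151000001 to 152000000 with 36 genes, including POGZ and SNX27, held 3 and 1 peaks in the controls against 17 and 14 with succinate. The other 2 were on chromosome 8 from 38000001 to 39000000 (3 and 2 in control, 17 and 24 in succinate) and on chromosome 21 from 45000001 to 46000000 (2 and 2 in control, 14 and 20 in succinate).

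Among the called windows, those with the largest differences in the other direction lay on chromosomes 4 and 5. On chromosome 5, the window from 164000001 to 165000000 has no protein-coding gene and held 60 and 79 peaks in the controls against 16 and 11 with succinate (log2 difference -2.29 ± 0.34, SE, limma adjusted p = 0.046). The window from 124000001 to 125000000, with ZNF608, held 63 and 56 in control against 14 and 11 in succinate. The window from 29000001 to 30000000 held 28 and 36 in the controls against 6 and 8 with succinate. On chromosome 4, the window lay from 126000001 to 127000000, with 26 and 50 in control against 6 and 11 in succinate. The groups did not overlap in any of the windows named, which the rule for naming them required.

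Windows of the same direction lay next to each other over long stretches. The longest unbroken run of windows in which both succinate libraries were above both controls covered 31 windows on chromosome 22 from 19000001 to 50000000. It held 181 and 224 peaks in the controls against 653 and 714 with succinate, a 3.39-fold difference. A run of 30 windows on chromosome 15 from 56000001 to 86000000 held 236 and 246 against 621 and 717. A run of 27 windows on chromosome 19 from 32000001 to 58573573 held 110 and 110 against 455 and 456, a 4.14-fold difference. The longest runs in the other direction covered 15 windows each. The run on chromosome 5 from 116000001 to 131000000 held 839 and 758 peaks in control against 310 and 308 in succinate, and the run on chromosome 6 from 90000001 to 105000000 held 409 and 566 against 190 and 264. The runs were picked for their lack of overlap, so these values are a description.

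Shorter gene bodies held more peaks per Mb after succinate, and the longest ones held fewer. Genes under 100 kb held 14.6 and 10.7 peaks per Mb in the controls against 23.5 and 24.3 with succinate. Genes of 100 to 300 kb held 21.1 and 17.4 against 27.1 and 29.4. Genes of 300 kb to 1 Mb held 32.1 and 32.9 against 30.3 and 30.5, a much smaller difference. The 69 genes of 1 Mb or more held 43.4 and 46.6 against 30.3 and 27.2. Gene length and gene density go together in the genome, and their parts were not separated here.

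No single gene body passed the test. Of 20033 protein-coding genes, 2415 had a mean of at least 3 peaks and were tested in limma, and 0 passed as higher (0%) and 0 as lower (0%), with a lowest adjusted p of 0.21. At an unadjusted p under 0.05 there were 335 higher and 146 lower. This count does not show that gene bodies did not differ. Without the minimum of 3 peaks, 584 passed as higher and 141 as lower, and with a minimum of 6 peaks 0 passed in either direction. Both succinate libraries were above both controls in 841 gene bodies (34.8%) and below them in 389 (16.1%), and the median log2 difference was 0.40.

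The 10 gene bodies with the largest positive differences are given as values. PLB1, which encodes a phospholipase, held 1 and 1 peaks in control against 13 and 14 in succinate. UBR4, a large ubiquitin ligase of the N-degron pathway, held 1 and 1 against 12 and 14. ABCC1, a drug efflux transporter, held 1 and 0 against 13 and 13. PPFIA1, a liprin of focal adhesions, held 0 and 0 against 7 and 13. In EML1, a microtubule-binding protein, there were 0 and 1 against 10 and 10. TNRC6C, a partner of Argonaute proteins in miRNA silencing, held 1 and 0 against 6 and 14. MYO1D, MYO1H, SPPL3 and ZNF362 each held 0 peaks in both control libraries and 5 to 10 in the succinate libraries. These genes are 114 to 385 kb long. The groups do not overlap in any gene named, since the naming rule required it. In all 10 genes the peaks of the succinate libraries alone were enough to reach the minimum mean of 3 peaks.

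The 10 with the largest negative differences are given in the same way. FBN2, which encodes the microfibril protein fibrillin-2, held 19 and 25 peaks in the controls against 6 and 2 with succinate. GABRB2, a GABA-A receptor subunit, held 20 and 30 against 4 and 6, and GRIK2, a kainate receptor subunit, held 18 and 31 against 3 and 8. PRR16 held 19 and 20 against 4 and 3. KCTD8 held 9 and 12 against 1 and 2, and RUNX1T1, a transcriptional corepressor, 10 and 10 against 1 and 2. TNIP3, an inhibitor of NF-kappa-B signalling, held 5 and 7 against 0 and 0. In PCDH7, a protocadherin, the controls themselves differed (8 and 34 peaks, against 5 and 1). FAT2 held 12 and 1 against 0 and 0, and AFF2 held 4 and 14 against 3 and 0. FBN2, GABRB2, PRR16 and FAT2 lie on chromosome 5. The naming rule required groups without overlap here too. In all 10 genes the peaks of the control libraries alone were enough to reach the minimum mean of 3 peaks.

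Gene lists chosen for the tissue and the treatment were summed over their gene bodies. Both succinate libraries were above both controls in 6 of 12 lists and below them in 2, and the lists carry no test. The 24 genes of succinate metabolism and desuccinylation held 21.2 and 10.2 peaks per Mb in control against 28.8 and 41.5 in succinate. Most of those peaks lay in few genes. SLC13A3, a sodium-dependent dicarboxylate carrier that takes up succinate, held 7 and 1 peaks in the controls against 11 and 11 with succinate. SUCLG2, a subunit of succinyl-CoA ligase, held 8 and 4 against 6 and 14, which overlap. Of the 2 members tested, 1 had both succinate libraries above both controls, as did 34.8% of all gene bodies tested, and 0 passed the test.

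The 28 Jumonji domain demethylases and TET enzymes held 13.6 and 8.89 peaks per Mb in control against 16.8 and 18.1 in succinate. TET3, which oxidises methylated cytosine, held 6 and 4 peaks against 7 and 12. JMJD1C, a Jumonji domain protein, held 9 and 8 against 9 and 10 and hardly differed. The 12 genes of PRC2, the complex that writes H3K27me3, held 17.5 and 9.98 peaks per Mb against 23.7 and 30.0. JARID2, an accessory subunit, held 10 and 5 peaks against 12 and 15, and AEBP2 held 1 and 2 against 2 and 1. The 28 genes of plasma proteins made by hepatocytes held 15.6 and 9.37 peaks per Mb against 20.3 and 18.7, which rest on 10, 6, 13 and 12 peaks. Only 4 of the 28 Jumonji and TET genes, 1 of the 12 PRC2 genes and 0 of the 28 plasma protein genes had enough peaks to be tested. None passed, as no gene body did, so this says nothing particular about the lists. The median log2 difference of all gene bodies tested was 0.40, so a higher level was the general direction. The plasma protein genes have no tested member to set beside that median.

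The 240 zinc finger genes on chromosome 19 held 5.08 and 6.10 peaks per Mb in the controls against 13.4 and 17.6 with succinate, a 2.75-fold difference. ZNF536, the member with the most peaks, held 5 and 5 against 17 and 19. The whole of chromosome 19 differed 2.64-fold, a value close to theirs. The 87 ribosomal protein genes held 2.77 and 9.71 peaks per Mb against 23.6 and 15.3, from 2, 7, 17 and 11 peaks. Housekeeping genes held 0, 1, 4 and 1 peaks and the replication-dependent histone genes 3, 0, 0 and 0, too few to compare.

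Potassium channel genes and the longest genes held fewer peaks per Mb in both succinate libraries than in both controls. The 96 potassium channel genes held 39.1 and 40.7 peaks per Mb in control against 34.8 and 33.8 in succinate, which is -0.22 on the log2 scale with a pooled replicate SD of 0.036. KCNIP4, a channel-interacting protein in a gene of over 1 Mb, held 34 and 72 peaks against 32 and 23. KCNMA1, the large-conductance calcium-activated channel, held 61 and 29 against 68 and 51, which overlap. Of the 34 members tested, 8 had both succinate libraries higher and 13 lower, where the shares over all gene bodies tested were 34.8% and 16.1%. The median log2 difference of these 34 was 0.025, against 0.40 over all gene bodies tested, so the summed level and the median differed in sign. Among the 69 genes of 1 Mb or more, 42 had both succinate libraries below both controls and 8 above, where the shares over all gene bodies tested were again 16.1% and 34.8%. MACROD2, which encodes a hydrolase of ADP-ribosylated proteins, held 264 and 147 peaks in the controls against 105 and 62 with succinate, and PTPRT, a receptor tyrosine phosphatase on the same chromosome 20, held 169 and 84 against 178 and 69. Olfactory receptor genes, which serve smell in sensory neurons, held 19.6 and 30.5 peaks per Mb against 20.7 and 27 and overlapped, as did the clustered protocadherins, with 19 and 12.7 against 29.5 and 14.8. Protocadherin alpha transcripts share exons, so a peak there counts for several members.

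**Figure D4:**
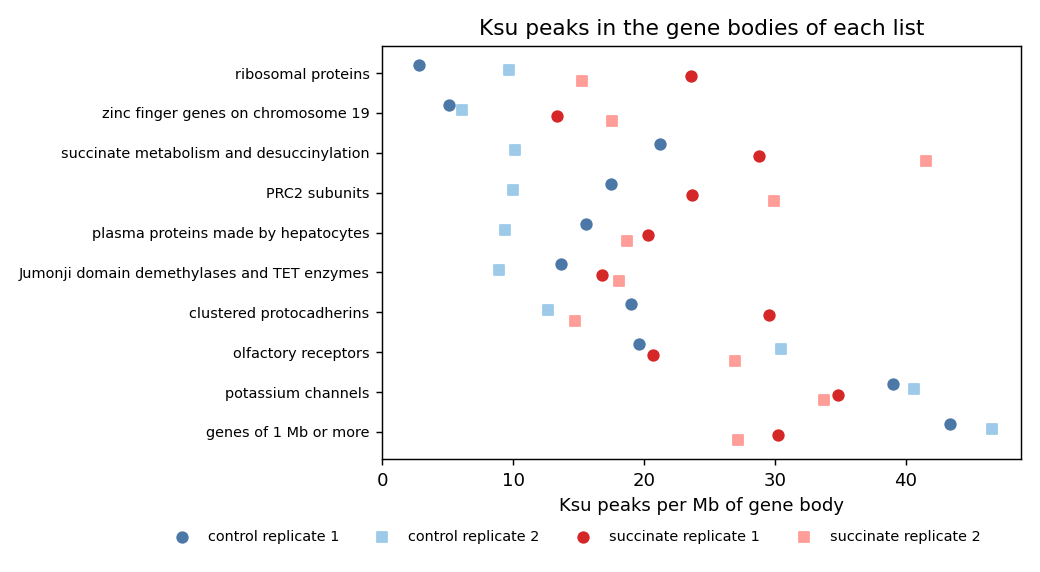
Ksu peaks per Mb of gene body (horizontal axis) for the 10 lists with a peak in every library; each point is a library, and control points are blue and succinate points red. Both red points lie to the right of both blue points in the 6 upper lists and to the left in the 2 lowest.

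Peaks were not concentrated at gene starts in any library. Within 1 kb of a protein-coding start lay 0.52% and 0.38% of the peaks in control and 0.66% and 0.49% in succinate, where such sequence is 0.97% of the chromosomes. The difference on the log2 scale, 0.36, was close to the replicate SD of 0.31, and the groups overlapped (exact permutation p = 0.667). This measure was added after the data had been seen. Divided by the share expected from the windows, the values were 0.722 and 0.630 in control against 0.654 and 0.487 in succinate, so starts held fewer peaks than their windows give in all 4. At middle distances the treatments separated. From 5 to 20 kb away the share of peaks over the share of the chromosomes was 0.632 and 0.522 in the controls against 0.971 and 0.988 with succinate, and at 100 kb or more it was 1.19 and 1.29 against 0.968 and 0.939. The median distance from a peak to the nearest start was 188 and 235 kb in control against 113 and 106 kb in succinate, against 127 kb for the chromosomes.

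**Figure D5:**
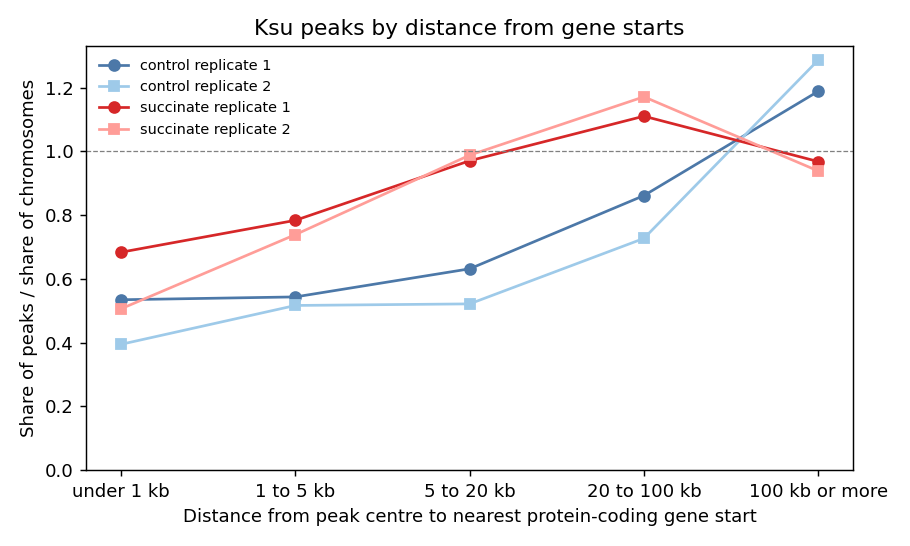
Share of Ksu peaks divided by the share of the chromosomes (vertical axis) by distance from the peak centre to the nearest protein-coding gene start (horizontal axis); each line is a library, and the dashed line at 1 marks an even spread. All 4 lines are below 1 within 5 kb, the control lines stay below it up to 100 kb, and the order of the treatments turns at 100 kb or more.

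Promoters were examined as the 250 bases before each start, for 15842 protein-coding genes with a promoter sequence from RefSeq (GRCh38.p14). Peaks overlapped 312 and 133 of them in control and 340 and 221 in succinate. Of these promoters, 15 were under peaks of both succinate and neither control library, 9 under peaks of both control and neither succinate library, and 0 under peaks of all 4. The promoters under peaks were poor in CpG. The median number of CG dinucleotides was 17 over all promoters and 10.5, 6, 6 and 4 over those under peaks of control 1, control 2, succinate 1 and succinate 2. Of the third of promoters with the highest GC content, 1.14% and 0.246% were under peaks in control and 0.966% and 0.265% in succinate. Of the third with the lowest, it was 3.03% and 1.5% against 3.52% and 2.80%.

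The letters of 4 promoters are printed as examples, with each CG in capitals. They were chosen after the values were seen, so they do not measure that contrast. Over promoters under peaks of both succinate and neither control library the median was 5 CG, with 15 in EPHB1 and 12 in THBS2. Over promoters under no peak it was 18. MGAT5B (chromosome 17, 76872397 to 76872646, plus strand), a glycosyltransferase gene, and NCR1 (chromosome 19, 54905898 to 54906147, plus strand), a natural killer cell receptor gene, were under peaks of both succinate libraries only. MINAR2 (chromosome 5, 129747844 to 129748093, plus strand) was under peaks of both controls only. The housekeeping gene GAPDH (chromosome 12, 6535014 to 6535263, plus strand) was under no peak and is the first of the housekeeping list of which that holds.
MGAT5B: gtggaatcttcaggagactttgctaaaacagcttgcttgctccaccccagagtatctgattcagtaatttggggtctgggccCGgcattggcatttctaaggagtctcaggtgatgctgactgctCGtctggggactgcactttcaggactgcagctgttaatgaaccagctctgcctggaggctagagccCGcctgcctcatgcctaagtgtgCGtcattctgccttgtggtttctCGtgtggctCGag
NCR1: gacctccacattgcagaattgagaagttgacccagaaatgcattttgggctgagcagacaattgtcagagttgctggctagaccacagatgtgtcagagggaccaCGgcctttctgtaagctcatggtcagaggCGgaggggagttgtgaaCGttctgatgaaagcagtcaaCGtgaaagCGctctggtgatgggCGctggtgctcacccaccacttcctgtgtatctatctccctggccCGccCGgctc
MINAR2: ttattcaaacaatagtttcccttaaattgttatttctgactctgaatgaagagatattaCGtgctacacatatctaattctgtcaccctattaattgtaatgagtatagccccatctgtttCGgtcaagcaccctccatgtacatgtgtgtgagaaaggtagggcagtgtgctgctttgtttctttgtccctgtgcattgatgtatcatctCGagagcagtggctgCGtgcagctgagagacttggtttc
GAPDH: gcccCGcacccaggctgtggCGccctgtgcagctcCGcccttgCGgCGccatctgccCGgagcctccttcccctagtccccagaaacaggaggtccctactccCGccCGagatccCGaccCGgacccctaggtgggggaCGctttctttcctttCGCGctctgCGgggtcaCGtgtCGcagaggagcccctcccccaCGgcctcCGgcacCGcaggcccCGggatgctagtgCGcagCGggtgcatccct
These hold 6, 8, 4 and 22 CG dinucleotides in the order printed. CG was searched as written, which reads the same on the other strand, and 96.9% of all promoters hold at least 1, so its presence sets none of them apart.

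Single peaks seldom recurred. Of the peaks of a library, between 6.64% and 11.5% were overlapped by a peak of another library. The overlap that random placement would give was not computed. It depends on the covered length, which differed between libraries. Pairs within a treatment (9.03% to 9.51%) lay inside the range of pairs between treatments. Between treatments, libraries of the same replicate number overlapped most (10.4% to 11.5%) and those of different numbers least (6.64% to 8.82%). The treatments thus differed in the density of peaks over windows and chromosomes. Single peaks recurred less within a treatment than between libraries of the same number. Peak size did not separate them either. Covered length was 80.4 and 56.5 Mb for the controls against 67.4 and 69.7 Mb with succinate, and their median width was 977 and 679 bp against 815 and 847 bp, with the succinate libraries between the controls in both measures.

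The same contrast was computed for H3K27me3, with 5531 peaks from each library. The gene body share of those peaks was 48.8% and 48.2% in the controls against 46.7% and 47.4% with succinate, or -0.043 on the log2 scale. The Ksu difference was larger by 0.325 on the log2 scale (exact two-sided permutation test over 36 arrangements, p = 0.0556, the smallest it can give). In the same permutation test p was 0.111 with peaks ranked by highest signal and 0.222 with all peaks. The ratio of gene-dense to gene-free windows for H3K27me3 was 126 and 107 in the controls against 217 and 175 with succinate. It thus rose without overlap, in the same direction as for Ksu. Its difference was 0.75 on the log2 scale, and the Ksu difference was larger by 1.33 (exact permutation p = 0.333). That ratio rests on 14, 16, 9 and 11 H3K27me3 peaks in gene-free windows. H3K27me3 peaks overlapped 0 of 8 hepatocyte marker genes such as ALB and APOA1 in every library, and 5 or 6 of 8 marker genes of other cell types, among them INS and MYH6. Ksu peaks overlapped 2, 1, 3 and 3 of the hepatocyte markers and 2, 4, 5 and 5 of the others. Peak lists do not measure expression, so this is a check of repressed chromatin only.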

How the data were processed

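The files are SEACR peak lists, named stringent, each of a single library, with the build hg38 per the submitters' processing notes. The aligner, the scaling, the control track and the threshold are not given in the sources used here. The authors' deposited signal columns hold the total and the highest signal of each peak. In each library the highest-signal values were multiples of 1 step, which differed between libraries (tolerance 0.02), so signal was used only to rank peaks within a list or in steps. Read depth is unknown and no counting interval is given.

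Gene bodies came from a RefSeq table of GRCh38.p14 and starts and promoters from a second RefSeq table of the same assembly. Peaks were placed by their centre. Chromosomes were taken to end with their last peak or gene, which gave 3056 Mb and 3070 windows. Stretches without any peak count in these lengths, and so in every share of the chromosomes given as a reference. Windows with a mean of at least 5 peaks and genes with a mean of at least 3 were fitted in limma 3.58.1 (R 4.3.3, trended empirical Bayes) on log2(peaks + 1), chromosomes on log2(peaks), with Benjamini-Hochberg adjustment over all features tested and a threshold of 0.05. Single values were compared by exact permutation. The window and gene fits were also run on simulated counts with noise drawn independently for each feature. Neighbouring windows are not independent in the real data, so that run does not show how reliable the calls are. Python 3.11.15 was used for the counts.

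The comparison, the lists and the tests were chosen with earlier results of these data known. Named windows and genes are the 5 and 10 largest non-overlapping differences in each direction, called ones first, and in each list the 2 members with the most peaks. The result for 1 of these windows is not reported here. The planned rule for promoters to print found none among the named genes with a promoter in the table, so 4 others were chosen after their values were seen.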

Additional observations from a re-analysis of the deposited data

Results flagged for a closer look

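The effect of succinate on the gene body share was higher for Ksu than for H3K27me3 by 0.325 log2 units. It is listed for this difference between antibodies, which had p = 0.0556 in the exact permutation test over 36 arrangements, the smallest it can give. That permutation p stayed at 0.0556 with 50% of the peaks, at a common minimum of signal and by covered bases. It was 0.111 with peaks ranked by highest signal and 0.222 with all peaks. The Ksu share was higher in both succinate libraries than in both controls, and the H3K27me3 share was lower in both. Equal numbers of peaks were set within each antibody, at 76702 for Ksu and 5531 for H3K27me3.

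Ksu peaks on sequences outside the 24 chromosomes numbered 1786 and are listed because they entered no comparison. By library the controls had 121 and 531 and the succinate libraries 336 and 798, which is 0.158%, 0.139%, 0.114% and 0.127% of each list. No antibody background was used here.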

How the results depend on the processing

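Over 15 results, 197 alternative values were computed, of which 166 were planned and 31 were added after seeing the data. Of these, 130 kept their direction and stayed within the pooled SD (for counts, within 1.5 times), 63 moved further and 4 turned sign. The 130 include fits with the replicate number as a block, which leave single values unchanged by construction. They also include gene body counts that stayed at 0. The Ksu gene body share, the dense to free ratio and the ratio within windows kept their direction in every alternative run. With a common minimum of total signal in steps (the common floor), at which 76702, 2526, 42885 and 35927 peaks remained, the log2 differences became 0.37 for the gene body share, 2.89 for the dense to free ratio, 0.080 within windows and 0.75 for starts. The dense to free difference was 2.53 with 50% of the peaks and 1.60 with all peaks. Covered length and median width turned to -0.26 and -0.31 when peaks were ranked by highest signal, and ranged from -0.23 without control replicate 2 to 0.28 and 0.29, respectively, without control replicate 1. Against H3K27me3, the gene body effect was 0.21 with all peaks and 0.47 at the common floor, and 0.27 to 0.38 when a replicate number was left out in a treatment. The dense to free effect was 2.35 with 50% of the peaks, 0.58 with all peaks and 2.61 at the common floor.

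Chromosomes called higher numbered 0 with all peaks and 5 at the common floor, and those called lower 0 and 2. Leaving out each library gave 0 to 3 higher and 0 lower. Windows called higher and lower numbered 424 and 297 by covered bases, 310 and 197 with a mean of 10 peaks, 330 and 220 in 2 Mb windows, 245 and 160 with peaks of at least 500 bp, and 291 and 158 on autosomes. They were 0 and 0 without a filter, in 0.5 Mb windows, when ranked by highest signal, with 50% of the peaks, in each fit that left out a library, and without chromosomes 5, 17, 19 and 22. Those chromosomes were left out after their values were seen. The common floor gave 68 higher, all peaks gave 207 lower, and a fit with no trend gave 30 lower. Gene bodies called numbered 584 higher and 141 lower with no filter, and 2 and 9 at the common floor. Where fewer libraries or other features were tested the settings differ by construction, and otherwise the cause was not tested.

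The replicate numbers are shared labels and nothing says that they pair cultures. The deviations from the group means had a correlation of 0.26 between libraries of the same number over the 2750 windows. Single peaks also overlapped most between libraries of the same number (10.4% to 11.5%). Whether the numbers pair cultures cannot be settled from 2 pairs. With the number as a replicate block, 7 chromosomes were called higher and 3 lower, and 697 windows higher and 532 lower. Single values keep their differences under the block.

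Peak lists leave the read depth unknown. The weakest peak taken had a total signal of 8977, 3515, 7448 and 7023 steps, and base composition, copy number and sequence uniqueness of the windows were not measured here.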
